A study of Rattus norvegicus with 32 samples.

Results

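The bone morphogenetic protein (BMP) ligands and antagonists described here are 9 genes, Bmp2, Bmp4, Bmp6, Bmp7, Chrd, Chrdl1, Chrdl2, Grem1 and Fst. They were found by matching gene identifiers of the count table to rat symbols, and all 9 were among its 17327 genes and among the 13312 with enough reads to test. RNA was sequenced from the uterus of Sprague-Dawley rats of the NCTR colony (Sprague-Dawley/CD23/NctrBR) collected at PND365, a postnatal day, in 8 groups of 4 libraries, 32 in all. One agent was ethinyl estradiol (EE2), an estrogen used in contraceptive pills, with daily doses per kg body weight of 0.05 and 0.5 µg. The other was bisphenol A (BPA), a plastics monomer that binds estrogen receptors weakly, with daily doses of 2.5, 25, 250, 2500 and 25000 µg. Controls received the vehicle, 0.3% carboxymethylcellulose. Per the labels the agents went by oral gavage to the dams from gestation day 6 until labor began, and then to the pups themselves from postnatal day 1 until collection. All groups, controls included, share this strain, route and age, and every comparison with control uses the same 4 control libraries. The labels name no animal, litter, estrous stage or batch, so p-values measure the spread between libraries, which may be partly technical.

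BMPs are secreted proteins of the transforming growth factor beta superfamily. They bind pairs of type I and type II receptors, which phosphorylate SMAD1, SMAD5 and SMAD9, and these enter the nucleus with SMAD4 and switch on targets such as the Id genes. Chordin, the chordin-like proteins, gremlin and follistatin bind ligands outside the cell and keep them from their receptors. In the mouse uterus, Bmp2 is required for decidualization, the change of stromal cells that receives the embryo, and Bmp7 contributes to implantation.

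Total counts ranged from 11777809 to 24661856 per library, and levels are given as CPM, the customary share of a library's reads, after its total was scaled by the TMM method. At the lowest total, 3 counts are worth 0.255 CPM. The 5 smooth muscle, 5 stroma and 5 simple epithelium markers were expressed in every library, as were the 3 measured genes of uterine identity, whose summed level was 201 to 496 CPM in exposed and 348 to 488 CPM in control libraries. The medians of this sum were 297 and 436 CPM, and 1 of the 3 genes was lower at BPA 2.5 (edgeR adjusted p under 0.05), as were 4.39% of all genes. With group means removed, Spearman's rho of the sum was 0.431 with Chrd, 0.614 with Chrdl2 and -0.481 with Fst. Its part in their results was not tested. Of the 32 libraries, 4 had the lowest median correlation with the rest: BPA 2.5 libraries 1 and 3, BPA 250 library 1 and BPA 25000 library 3. These 4 were named in an earlier report on these data, and results that rest on them are given with and without them. In whole tissue, fewer cells of a type and less RNA per cell cannot be told apart.

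Chordin (Chrd) was called lower at EE2 0.5 and BPA 2.5 and chordin-like 2 (Chrdl2) at BPA 25 and BPA 250, while follistatin (Fst) and Bmp4 were called higher at BPA 2.5. An F test of the 5 BPA groups against control called Bmp7, and Bmp2, Bmp6, Grem1 and Chrdl1 passed the threshold in none of 14 comparisons. A call here is an adjusted p under 0.05 from edgeR's quasi-likelihood test, with Benjamini-Hochberg adjustment over all 13312 genes. Among the 9 genes, 0 were called at EE2 0.05, against 0.0451% of all genes, and 1 at EE2 0.5, against 0.556%. At EE2 0.05 the unadjusted p was under 0.05 for 2 of the 9 (11.5% of all genes), and DESeq2 called 0. Going up the BPA doses, 3 of 9 were called at BPA 2.5, where 11.4% of all genes were called, 1 at BPA 25 (1.92% of all genes) and 1 at BPA 250 (8.79%). At BPA 2500 the count was 0, as it was for all genes (0%), with 2 of the 9 at an unadjusted p under 0.05 (10.2% of all genes) and 0 by DESeq2. At BPA 25000 the count was also 0, against 2.32% of all genes, with 4 at an unadjusted p under 0.05 (19.3% of all genes) and 1, Chrd, by DESeq2. DESeq2 called 770 of all genes there, against 309 by edgeR. The median log2 fold change of the 9 genes ran from -0.54 at BPA 25 to 0.24 at EE2 0.5, beside all-gene medians of 0.0036 and 0.0010, and 3 to 6 of the 9 lay above 0 in each of the 7 groups.

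Chrd encodes chordin, which binds BMP4 and BMP7 and blocks them. Its mRNA was called lower at EE2 0.5, over both EE2 groups and at BPA 2.5, and 26 of 28 exposed libraries lay below the lowest control. Among all genes tested, 0.398% had at least as many exposed libraries below all controls. The gene's promoter, the 250 bases before its start in RefSeq (GRCr8, chr11:93685101-93685350, minus strand, printed along the gene), is shown because Chrd is the member with the most exposed libraries outside the control range. Capitals mark GGCGCC, a palindrome that SMAD proteins of the BMP branch can bind, and GGTCA, the half-site of an estrogen response element.
Chrd promoter: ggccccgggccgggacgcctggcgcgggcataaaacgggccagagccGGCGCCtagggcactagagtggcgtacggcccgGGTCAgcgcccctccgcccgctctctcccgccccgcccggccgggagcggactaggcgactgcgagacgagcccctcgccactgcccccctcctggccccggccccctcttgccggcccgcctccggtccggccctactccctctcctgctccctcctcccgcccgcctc
The promoter is rich in G and C (78.4%). GGCGCC begins 203 and GGTCA 170 bases before the start, and the 2 matches do not overlap. GGTCA or its reverse complement TGACC is found in 35.4% of 33469 rat promoter windows of the same length, and GGCGCC in 8.69%. The full palindromic element GGTCANNNTGACC, which contains the half-site and is found in 0.0239%, has no match in this window. Of the 5 members with a promoter entry, Grem1 also has both motifs, with 2 matches of GGTCA and 1 of GGCGCC, and no comparison called Grem1. Bmp4, Bmp6 and Chrdl1 have neither. These are matches of letters, not shown binding sites.

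In EE2 0.05 uteri Chrd had 40.5, 48.0, 48.6 and 50.1 CPM, and in EE2 0.5 uteri 32.4, 33.3, 37.9 and 50.04 CPM, against 78.0, 144, 86.6 and 77.1 CPM in controls. All 8 EE2 libraries lay below all controls, which was so for 1.43% of genes tested. For each EE2 dose alone, 5.66% (EE2 0.05) and 6.02% (EE2 0.5) of genes had all libraries below the controls. The log2 fold change was -1.33 (SE 0.29) at EE2 0.5, where edgeR called it with an adjusted p of 0.0425, among 0.293% of genes called lower. At EE2 0.05 it was -1.04 (SE 0.29), and the edgeR adjusted p was 0.222, or 0.0458 with only the groups compared in the fit (-1.03). The latter fit called 130 of all genes, against 6 in the fit over all groups. Over both EE2 groups the log2 fold change of Chrd was -1.19 (SE 0.24), with an adjusted p of 0.0430, and Chrd was 1 of the 0.0676% of genes called there. Chrd fell at EE2 0.5 and in the EE2 mean by this test, while the difference between the EE2 doses, -0.29 with a 95% interval from -0.87 to 0.30, was not called.

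Across BPA doses Chrd had 23, 57.8, 32.7 and 79.2 CPM at BPA 2.5, and 27.2, 76.0, 44.1 and 67.4 CPM at BPA 25. It had 69.3, 70.2, 57.4 and 66.6 CPM at BPA 250, and 63.3, 65.3, 80.5 and 52.8 CPM at BPA 2500. At BPA 25000 it had 48.6, 55.7, 54.9 and 40.9 CPM. The groups BPA 25, 250 and 25000 lay wholly below the controls, as did 9.79%, 9.78% and 7.14% of genes, and 1 library each of BPA 2.5 and BPA 2500 lay within the control range. Chrd was called lower at BPA 2.5, with a log2 fold change of -1.002 (SE 0.29) and an edgeR adjusted p of 0.0237, in a comparison where 4.39% of genes were called lower. The other doses had log2 fold changes of -0.85 (BPA 25), -0.55 (BPA 250), -0.56 (BPA 2500) and -0.95 (BPA 25000), with edgeR adjusted p of 0.0829, 0.202, 0.513 and 0.0708. Their 5-dose mean was -0.78 (SE 0.21), with an adjusted p of 0.0504, just past the threshold. An F test over the 5 BPA groups called Chrd (adjusted p = 0.0378, with 34.3% of all genes called), and the linear trend over log10 dose among BPA groups, with 4.62% of genes called, did not (0.04 per 10-fold dose, interval from -0.09 to 0.17).

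The size of the Chrd difference depends on control library 2, which at 144 CPM was the highest of all 32. Without it the log2 fold change at EE2 0.5 was -1.07 (edgeR adjusted p = 0.168), at BPA 2.5 -0.75 (0.122) and over both EE2 groups -0.92 (0.349). The EE2 0.5 call was also lost without control library 3 (0.195) or 4 (0.0652), without any 1 of the EE2 0.5 libraries (0.0724 to 0.115), and without EE2 0.05 library 1 or BPA 25000 library 2 or 4 (0.0519 to 0.0534). The call over both EE2 groups was lost in 21 of 32 fits that left out 1 library, and that of the F test over BPA groups in 12 (adjusted p up to 0.223, without control library 2). At BPA 2.5 the call was lost without library 1 (log2 fold change -0.76, adjusted p = 0.113) or library 3 (-0.85, 0.0962). A fit of only the groups compared did not call Chrd at BPA 2.5 (-1.03, edgeR adjusted p = 0.164) or in the F test over BPA groups (0.0918). Such fits kept the calls at EE2 0.5 (0.0309) and over both EE2 groups (0.00677). Without the 4 libraries that stood apart, the BPA 2.5 value was -0.48 (edgeR adjusted p = 0.405), and BPA 25, BPA 25000 and the BPA mean were called, at -0.83, -0.98 and -0.68 (adjusted p = 0.0325, 0.0314 and 0.0364). At BPA 25, BPA 25000 and the BPA mean that fit called 1374, 751 and 629 of all genes, against 256, 309 and 178 with all libraries.

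Of 5 smooth muscle markers (Acta2, Myh11, Tagln, Cnn1 and Des), 0 were called in each of the 7 groups. The unadjusted edgeR p was under 0.05 for 3 of them at EE2 0.05 and 0 at EE2 0.5. From BPA 2.5 to BPA 25000 it was so for 2, 4, 3, 1 and 2. Their median log2 fold change was below 0 in all 7 groups, from -0.83 at BPA 25 to -0.27 at EE2 0.5. Their summed level was 9778 to 24582 CPM in exposed libraries (median 15573) and 15554 to 30925 CPM in controls (median 21361). Control library 2 was highest in both Chrd and these markers, at 30925 CPM, and BPA 2.5 libraries 1 and 3 were lowest in the markers, at 9778 and 11038 CPM, with 23 and 32.7 CPM of Chrd. These 2 libraries also had the highest summed ciliated cell markers, 421 and 308 CPM, against 0.797 to 1.98 CPM in controls, and 5 of 5 of these markers were called higher at BPA 2.5. Of 5 squamous epithelium markers 4 were in the table, and 2 of the 4 were called higher in each of EE2 0.05, EE2 0.5 and BPA 2.5. They summed to 0.512 to 371 CPM at EE2 0.05, 27 to 218 CPM at EE2 0.5 and 14.8 to 29.6 CPM at BPA 2.5, against 0.652 to 1.63 CPM in controls, where Krt4 was at 0. Spearman's rho of Chrd, with group means removed, was 0.66 with smooth muscle, -0.607 with ciliated cell and 0.477 with squamous epithelium markers. The part of muscle, ciliated or squamous cell content in the Chrd result was not tested.

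**Figure D1:**
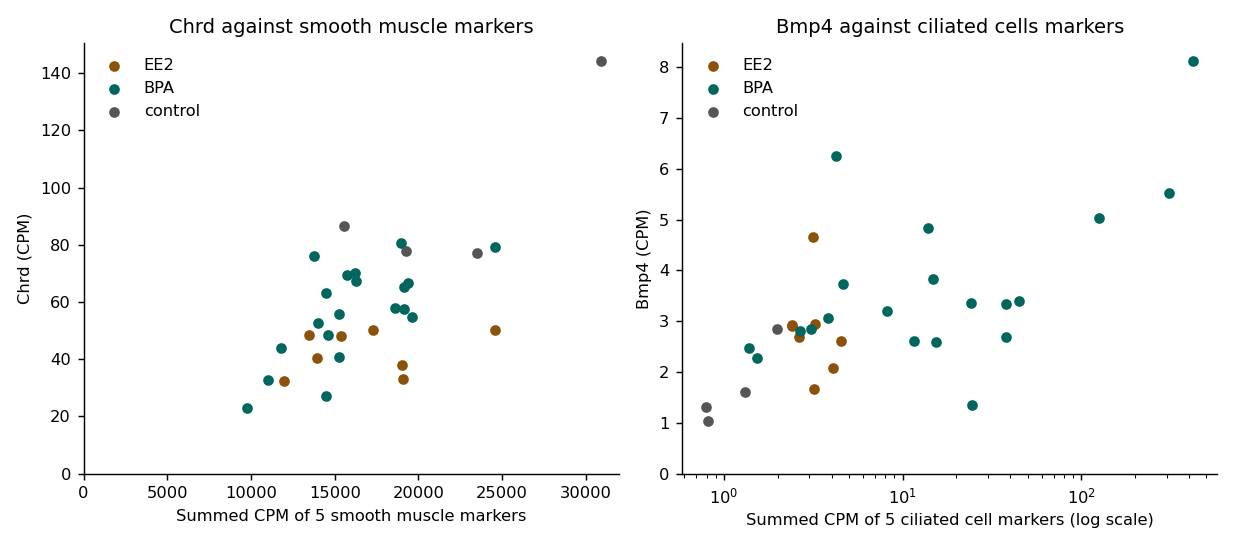
Each dot is 1 of 32 libraries, coloured by exposure, with Chrd (CPM) plotted against the summed CPM of 5 smooth muscle markers and Bmp4 (CPM) against that of 5 ciliated cell markers on a log axis. Control library 2 stands at the top right of the Chrd panel (30925 and 144 CPM), and the library with the highest ciliated cell level (421 CPM, BPA 2.5) has the highest Bmp4 (8.11 CPM).

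Chrdl2 encodes chordin-like 2, a relative of chordin that binds BMPs through the same kind of cysteine-rich repeats. It was called lower at BPA 25, at BPA 250 and over the 5 BPA doses, and 23 of 28 exposed libraries lay below all controls, as in 1.96% of genes. In EE2 0.05 uteri Chrdl2 had 10.8, 13.5, 17.5 and 20.5 CPM and in EE2 0.5 uteri 13.7, 33.95, 21.7 and 47.1 CPM, against 49.0, 60.5, 34.6 and 43.6 CPM in controls. The EE2 0.05 libraries all lay below the controls, as in 5.66% of genes, and the EE2 0.5 libraries overlapped them. The log2 fold changes were -1.59 (SE 0.58) at EE2 0.05 and -0.69 (SE 0.56) at EE2 0.5, and neither was called by edgeR (adjusted p = 0.290 and 0.601). With only the groups compared in the fit, edgeR called Chrdl2 lower at EE2 0.05 (-1.58, adjusted p = 0.0316) and over both EE2 groups (-1.13, 0.0320). Those fits called 130 and 612 of all genes, against 6 and 9 in the fit over all groups.

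Over the BPA doses Chrdl2 had 10.7, 12.9, 12.5 and 38.4 CPM at BPA 2.5, 5.09, 7.08, 8.42 and 14.9 CPM at BPA 25, and 13.6, 17.1, 7.04 and 5.89 CPM at BPA 250. It had 34.7, 13.03, 39.2 and 5.62 CPM at BPA 2500, and 19.2, 4.51, 35.8 and 5.60 CPM at BPA 25000. The 8 libraries of BPA 25 and 250 all lay below the controls, as in 9.79% and 9.78% of genes, while the other doses each had at least 1 library within the control range and spread widely within the group. Chrdl2 fell at BPA 25, with a log2 fold change of -2.40 (SE 0.60) and an edgeR adjusted p of 0.0393, where 0.969% of genes were called lower. It fell likewise at BPA 250, with -2.10 (SE 0.59) and 0.0290, where 4.35% were called lower. Over the 5 doses the mean was -1.68 (SE 0.39; edgeR adjusted p = 0.0382), in a comparison with 1.34% of all genes called. The values at BPA 2.5, 2500 and 25000 were -1.33, -1.02 and -1.53 and did not pass (edgeR adjusted p = 0.130, 0.563 and 0.140). From the lowest group mean up, the order was BPA 25 (8.88 ± 4.26 CPM, SD, n = 4 here and for each group), BPA 250 (10.9 ± 5.34), EE2 0.05 (15.6 ± 4.26), BPA 25000 (16.3 ± 14.6), BPA 2.5 (18.6 ± 13.3), BPA 2500 (23.1 ± 16.3), EE2 0.5 (29.1 ± 14.6) and control (46.9 ± 10.8). The step between EE2 0.5 and control was the only one that exceeded the larger SD of its 2 neighbours.

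The F test over the 5 BPA groups called Chrdl2 (edgeR adjusted p = 0.0133) and did so in all 32 fits without 1 library (0.00471 to 0.0499). The call at BPA 25 was lost in 8 such fits, without any 1 of the 4 controls (0.0670 to 0.101), without BPA 25 library 1, 2 or 3 (0.0749 to 0.164) or without EE2 0.5 library 3 (0.0509), with log2 fold changes between -2.75 and -2.21 over all 32 fits. The call at BPA 250 was lost in 5, without BPA 250 library 1, 3 or 4 or control library 2 or 4 (0.0611 to 0.0878), with values between -2.41 and -1.89. Over the 5 BPA doses it was lost in 13, with values between -1.81 and -1.52 and adjusted p up to 0.164, the highest being without control library 2. The call over the 5 doses was also lost with only the groups compared in the fit (-1.68, edgeR adjusted p = 0.0834). Those at BPA 25 and BPA 250 were kept in such fits (0.0117 and 0.0181). Without the 4 libraries that stood apart, Chrdl2 was called at BPA 25 (-2.39, edgeR adjusted p = 0.0162), BPA 250 (-2.20, 0.0353) and BPA 25000 (-2.24, 0.0327). That fit called 1374, 884 and 751 of all genes at these doses, against 256, 1170 and 309 with all libraries. Smooth muscle markers summed to 11789 to 16265 CPM at BPA 25 and 15754 to 19380 CPM at BPA 250, against 15554 to 30925 CPM in controls. Ciliated cell markers (5 of 5) summed to 24 to 44.5 CPM at BPA 25 and 1.39 to 14.8 CPM at BPA 250, against 0.797 to 1.98 CPM in controls, and 1 of 5 was called higher at BPA 25. Stroma markers (5 of 5) summed to 9642 to 19434 CPM at BPA 25 and 18419 to 21315 CPM at BPA 250, against 5958 to 16577 CPM in controls, with 2 of 5 called higher at BPA 250. Fat markers (5 of 5) summed to 412 to 1507 CPM at BPA 25 and 295 to 950 CPM at BPA 250, against 86.4 to 619 CPM in controls, with 1 of 5 called higher at each dose. Spearman's rho of Chrdl2, with group means removed, was -0.571 with ciliated cell, -0.546 with fat, 0.385 with smooth muscle and -0.0282 with stroma markers. The part of these lists in the Chrdl2 result was not tested.

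**Figure D2:**
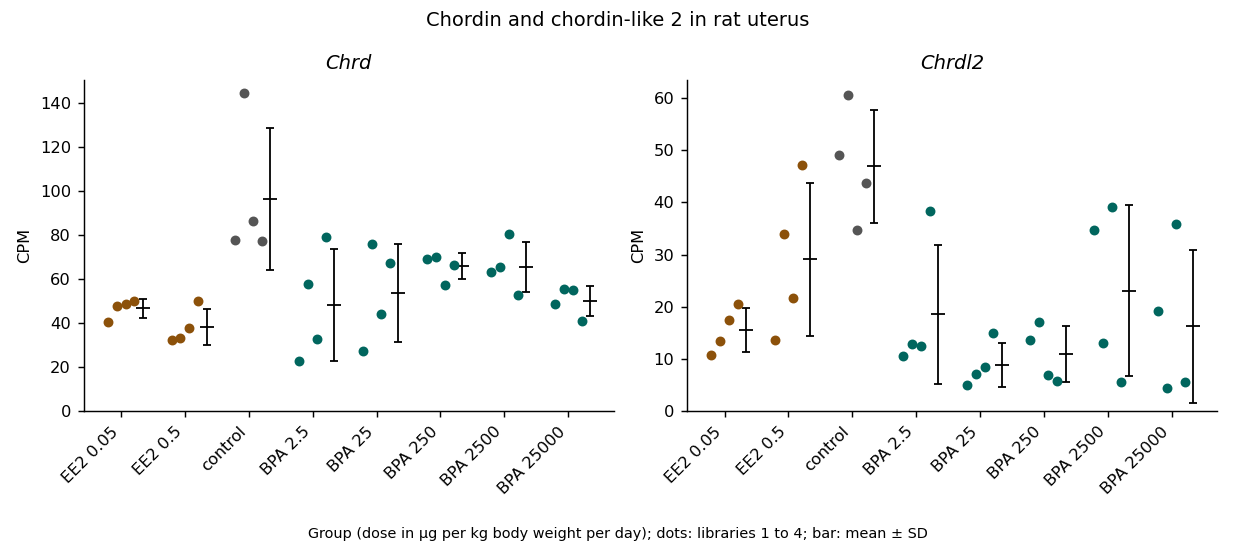
CPM of Chrd and Chrdl2 in each library (dots, 4 per group) with the group mean ± SD (bars), by group with the dose in µg per kg per day. The 4 BPA 25 libraries lie between 5.09 and 14.9 CPM for Chrdl2 and the 4 EE2 0.5 libraries between 32.4 and 50.04 CPM for Chrd, while control libraries reach 60.5 and 144 CPM.

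Fst encodes follistatin, which binds activins tightly and some BMPs more weakly. It was called higher at the lowest BPA dose. Levels of Fst were 20.98, 11.5, 8.08 and 5.17 CPM in EE2 0.05 uteri and, in EE2 0.5 uteri, 16.5, 8.68, 26.2 and 16.6 CPM, against 4.57, 11.99, 8.04 and 9.05 CPM in controls. Both EE2 groups overlapped the controls, and log2 fold changes of 0.44 and 1.01 were not called by edgeR (adjusted p = 0.787 and 0.342). BPA 2.5 uteri had 31.9, 22.9, 34.9 and 13.8 CPM, BPA 25 uteri 13.9, 4.97, 17.2 and 6.00 CPM, and BPA 250 uteri 4.73, 3.40, 25.9 and 9.53 CPM. At BPA 2500 the levels were 10.7, 24.4, 19.2 and 20.9 CPM, and at BPA 25000 they were 13.9, 27.8, 21.3 and 16.1 CPM. All libraries of BPA 2.5 and BPA 25000 lay above all controls, as in 6.45% and 6.16% of genes, and 18 of 28 exposed libraries did, which 9.72% of genes matched or passed.

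At BPA 2.5 the log2 fold change of Fst was 1.62 (SE 0.52), and edgeR called it higher (adjusted p = 0.0402), as it did 7.06% of all genes. The values at BPA 2500 and BPA 25000, 1.16 and 1.23, were not called (edgeR adjusted p = 0.443 and 0.179), and those at BPA 25 and 250 were 0.32 and 0.35. The BPA 2.5 call was lost without library 1 or 3 of that group (adjusted p = 0.104 and 0.106) or without any 1 control (0.0509 to 0.105), and without the 4 libraries that stood apart the value was 1.13 (edgeR adjusted p = 0.317). It was also lost with only the groups compared in the fit (1.58, edgeR adjusted p = 0.066). Libraries 1 and 3, the highest in Fst at BPA 2.5, also had the highest ciliated cell levels, 421 and 308 CPM. Fat markers summed to 252 to 753 CPM at BPA 2.5, against 86.4 to 619 CPM in controls, with 0 of 5 called. The unadjusted edgeR p was under 0.05 for 3 of these 5, and their median log2 fold change was 2.45. With group means removed, Spearman's rho of Fst was 0.655 with fat and 0.491 with ciliated cell markers. The part of ciliated and fat cells in the Fst result was not tested. Fst overlaps a long noncoding RNA gene, LOC120100717, on GRCr8, and as the use of strand in counting is not given in the sources used here, reads of the pair may not be told apart.

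Grem1 encodes gremlin 1, which binds BMP2, BMP4 and BMP7. Its level varied widely within every group and no comparison called it. Its levels were 24.6, 12.2, 45.7 and 9.46 CPM in EE2 0.05 uteri and, in EE2 0.5 uteri, 39.0, 4.94, 19.1 and 8.15 CPM, against 10.8, 6.96, 7.10 and 35.1 CPM in controls. BPA 2.5 uteri had 8.62, 43.9, 13.7 and 15.9 CPM, BPA 25 uteri 75.9, 8.44, 28.7 and 17.9 CPM, BPA 250 uteri 2.51, 33.4, 48.8 and 41.1 CPM, BPA 2500 uteri 23.4, 19.5, 22.3 and 52.6 CPM, and BPA 25000 uteri 41.7, 23.7, 7.68 and 32.7 CPM. All 7 exposed groups overlapped the controls, although each exposed mean was above the control mean of 14.98 ± 13.5 CPM (SD, n = 4). The BPA mean differed from control by 0.88 on the log2 scale, with a 95% interval from -0.40 to 2.16, so changes of either direction remain within the error.

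Chrdl1 encodes chordin-like 1, an antagonist of BMP4 in particular. In EE2 0.05 uteri it had 4.36, 14.1, 9.75 and 16.6 CPM and in EE2 0.5 uteri 9.86, 18.5, 79.5 and 49.3 CPM, against 8.79, 38.8, 3.19 and 45.1 CPM in controls. The controls themselves spanned the levels of most exposed libraries, and no comparison with control was called. The BPA groups had 43.7, 28.6, 31.4 and 8.60 CPM at BPA 2.5, 27.6, 28.8, 34.03 and 25.2 CPM at BPA 25, 25.0, 16.1, 46.5 and 29.7 CPM at BPA 250, 26.3, 20.8, 13.97 and 12.96 CPM at BPA 2500, and 12.3, 10.7, 21.2 and 7.15 CPM at BPA 25000. Between the EE2 doses the log2 difference was 1.81 (SE 0.62, interval from 0.54 to 3.08), with an unadjusted p of 0.00678 and an edgeR adjusted p of 0.451, in a comparison with 0.015% of genes called. The slope over BPA dose was -0.29 per 10-fold dose (unadjusted p = 0.0419, edgeR adjusted p = 0.201), so neither passed.

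**Figure D3:**
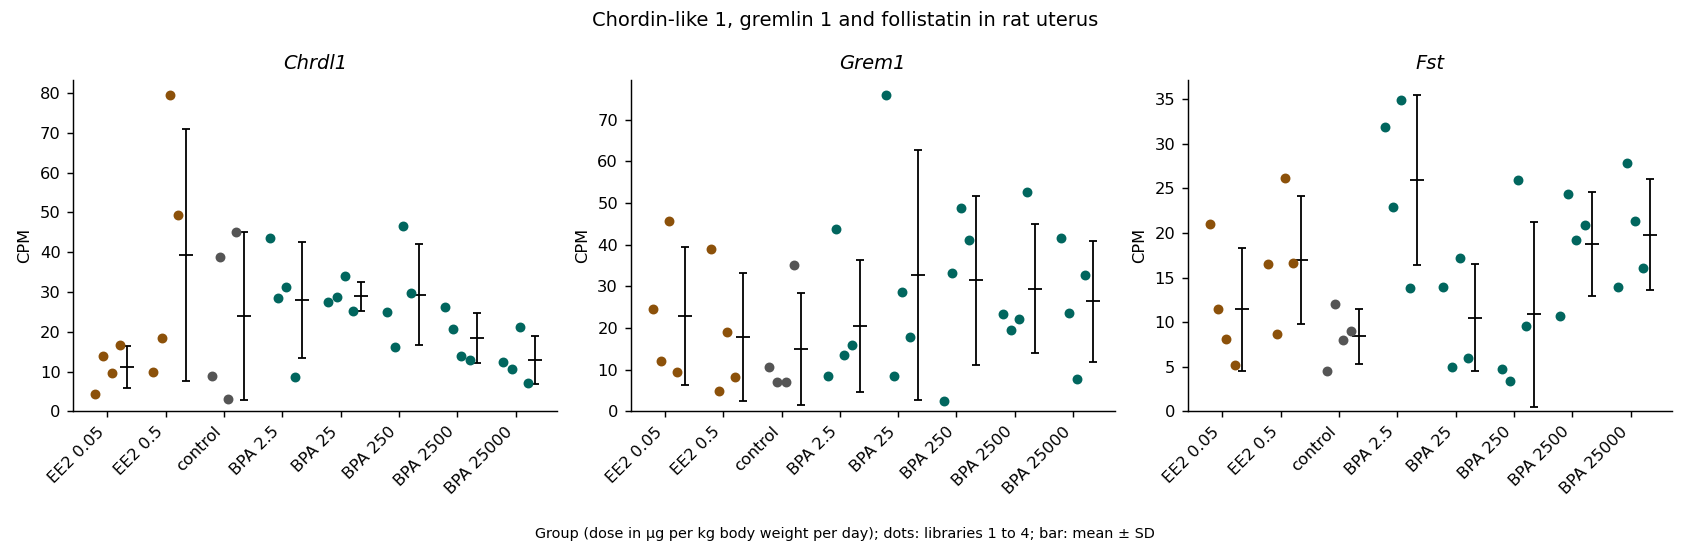
CPM of Chrdl1, Grem1 and Fst in each library (dots, 4 per group) with the group mean ± SD (bars). The 4 BPA 2.5 libraries of Fst, at 13.8 to 34.9 CPM, lie above the highest control at 11.99 CPM, while for Chrdl1 and Grem1 the controls spread over 3.19 to 45.1 and 6.96 to 35.1 CPM.

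Among the ligands, Bmp4 was the one called higher at a single BPA dose. BMP4 signals in the stroma and muscle of many organs and shares its receptors with BMP2. The 250 bases before its start (RefSeq, GRCr8, chr15:22101934-22102183, minus strand, printed along the gene) are shown for comparison with those of Chrd, its antagonist, with capitals on CACGTG, the canonical E-box bound by basic helix-loop-helix factors.
Bmp4 promoter: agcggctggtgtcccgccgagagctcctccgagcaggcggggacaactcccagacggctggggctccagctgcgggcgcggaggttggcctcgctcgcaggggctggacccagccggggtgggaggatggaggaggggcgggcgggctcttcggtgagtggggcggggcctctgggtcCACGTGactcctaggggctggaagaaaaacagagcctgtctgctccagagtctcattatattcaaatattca
This window has 66.4% G and C, and CACGTG, a palindrome that starts 72 bases before the gene, is found in 5.59% of rat promoter windows. None of the Chrd motifs named above matches in it, nor does the E-box in the Chrd window.

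In EE2 0.05 uteri Bmp4 had 2.08, 2.93, 1.67 and 2.94 CPM and in EE2 0.5 uteri 2.70, 2.91, 2.61 and 4.66 CPM, against 2.85, 1.04, 1.30 and 1.60 CPM in controls. Counts were low, from 14 to 128 reads per library. The BPA groups had 8.11, 2.85, 5.53 and 2.80 CPM at BPA 2.5, 3.39, 1.36, 3.34 and 3.37 CPM at BPA 25, 4.84, 2.27, 3.83 and 2.48 CPM at BPA 250, 3.20, 5.02, 3.06 and 2.69 CPM at BPA 2500, and 3.73, 2.59, 6.25 and 2.61 CPM at BPA 25000. Of the exposed libraries, 17 of 28 lay above all controls, as in 11.6% of genes, and every exposed group overlapped control library 1. The log2 fold change at BPA 2.5 was 1.51 (SE 0.41), called by edgeR with an adjusted p of 0.0183 and lost in 3 of 32 fits without 1 library. The other BPA doses had 0.76, 0.98, 1.05 and 1.16 from BPA 25 to BPA 25000, the EE2 doses 0.51 and 0.93, and none of these was called. Over the 5 BPA doses the mean was 1.09 (SE 0.34, edgeR adjusted p = 0.0856), and DESeq2 called it. DESeq2 called 776 of all genes in that comparison, against 178 by edgeR.

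The libraries that stood apart had 8.11 and 5.53 CPM of Bmp4 (BPA 2.5), 4.84 CPM (BPA 250) and 6.25 CPM (BPA 25000), while the highest of the other libraries, BPA 2500 library 2, had 5.02 CPM. Without them the BPA 2.5 value was 0.74 (edgeR adjusted p = 0.351), and without BPA 2.5 library 1 alone it was 1.13 (0.112). Leaving out control library 2 or 3 also ended the call (adjusted p = 0.0703 and 0.0716), as did a fit of only the groups compared (1.47, edgeR adjusted p = 0.122). BPA 2.5 libraries 1 and 3 also had summed ciliated cell marker levels (5 of 5 markers) of 421 and 308 CPM, against 0.797 to 1.98 CPM in controls, and the lowest smooth muscle levels. Their mesothelium markers (2 of 4 in the table) summed to 249 and 198 CPM, against 113 to 139 CPM in controls, and stroma markers to 5008 and 5553 CPM, against 5958 to 16577 CPM. With group means removed, Spearman's rho of Bmp4 was 0.611 with mesothelium, -0.533 with stroma, 0.453 with ciliated cell and -0.13 with smooth muscle markers. The part of these cell types in the Bmp4 result was not tested. Bmp4 overlaps a long noncoding RNA gene, LOC134481955, on GRCr8, so the caution on strand holds here too.

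Bmp7, which in the mouse uterus acts in the epithelium and stroma around implantation, was called by the F test of the 5 BPA groups against control. That test does not compare the doses with each other, and the linear trend over BPA dose did not call Bmp7 (edgeR adjusted p = 0.694). The levels were 9.83, 7.03, 11.9 and 15.5 CPM in EE2 0.05 uteri and, in EE2 0.5 uteri, 11.96, 15.6, 6.91 and 13.8 CPM, against 15.6, 5.92, 11.7 and 7.38 CPM in controls. Neither EE2 group stood outside the controls. It had 25.0, 4.77, 26.2 and 10.6 CPM at BPA 2.5, 5.26, 4.56, 5.99 and 6.95 CPM at BPA 25, 0.835, 8.85, 1.87 and 3.52 CPM at BPA 250, 7.18, 10.99, 8.16 and 11.9 CPM at BPA 2500, and 14.9, 4.28, 11.1 and 8.22 CPM at BPA 25000. The highest 2 libraries, both BPA 2.5, and the lowest, BPA 250 library 1, are among those that stood apart. The F test over the 5 BPA doses called Bmp7 (edgeR adjusted p = 0.0251), with no single dose called by edgeR: the log2 fold changes were 0.72 at BPA 2.5 (adjusted p = 0.375), -0.83 at BPA 25 (0.314) and -1.41 (SE 0.52) at BPA 250 (0.0787), and near 0 at the 2 highest doses. DESeq2 called Bmp7 lower at BPA 250 (-1.40, DESeq2 adjusted p = 0.0428), where it called 1842 of all genes, against 1170 by edgeR. Without the 4 libraries the F test no longer called Bmp7 (adjusted p = 0.260), and this call was also lost without BPA 2.5 library 1 or 3 (0.0884 and 0.0921) or BPA 250 library 1, 3 or 4 (0.0508, 0.0683 and 0.0539). With only the groups compared in the fit, the F test gave an edgeR adjusted p of 0.0628.

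Bmp2, the ligand needed for decidualization in mice, was called in no comparison. In EE2 0.05 uteri it had 5.54, 5.49, 5.005 and 10.46 CPM and in EE2 0.5 uteri 6.64, 11.2, 4.88 and 11.1 CPM, against 8.88, 13.8, 7.46 and 10.2 CPM in controls. It had 4.12, 4.93, 5.13 and 6.56 CPM at BPA 2.5, 6.02, 6.67, 7.31 and 7.68 CPM at BPA 25, 17.7, 6.49, 5.35 and 4.39 CPM at BPA 250, 8.53, 4.69, 11.9 and 4.85 CPM at BPA 2500, and 9.36, 5.41, 2.74 and 8.06 CPM at BPA 25000. The control mean, 10.1 ± 2.70 CPM (SD, n = 4), was the highest of the 8 group means, and 19 of 28 exposed libraries lay below all controls, as in 7.50% of genes. At BPA 2.5, the one dose with all libraries below the controls (5.72% of genes), the log2 fold change was -0.96 (SE 0.40, edgeR adjusted p = 0.121). The fold changes of the other groups lay between -0.66 and -0.25.

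Bmp6, a ligand best known for regulating iron through hepcidin in the liver and expressed in ovary and uterus, was also called nowhere. Its libraries ran between 0.864 and 4.33 CPM. The EE2 group means were 2.39 ± 0.20 CPM at 0.05 and 3.20 ± 0.80 CPM at 0.5, against 2.87 ± 1.11 CPM in controls (SD, n = 4 each). From low to high BPA dose the means were 2.83 ± 0.59, 1.79 ± 0.22, 1.93 ± 0.52, 2.42 ± 1.41 and 3.36 ± 1.02 CPM (SD, n = 4 each). Each mean lay within the larger SD of its neighbour in order of level. The BPA mean differed from control by -0.26 on the log2 scale, with an interval from -0.84 to 0.32.

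**Figure D4:**
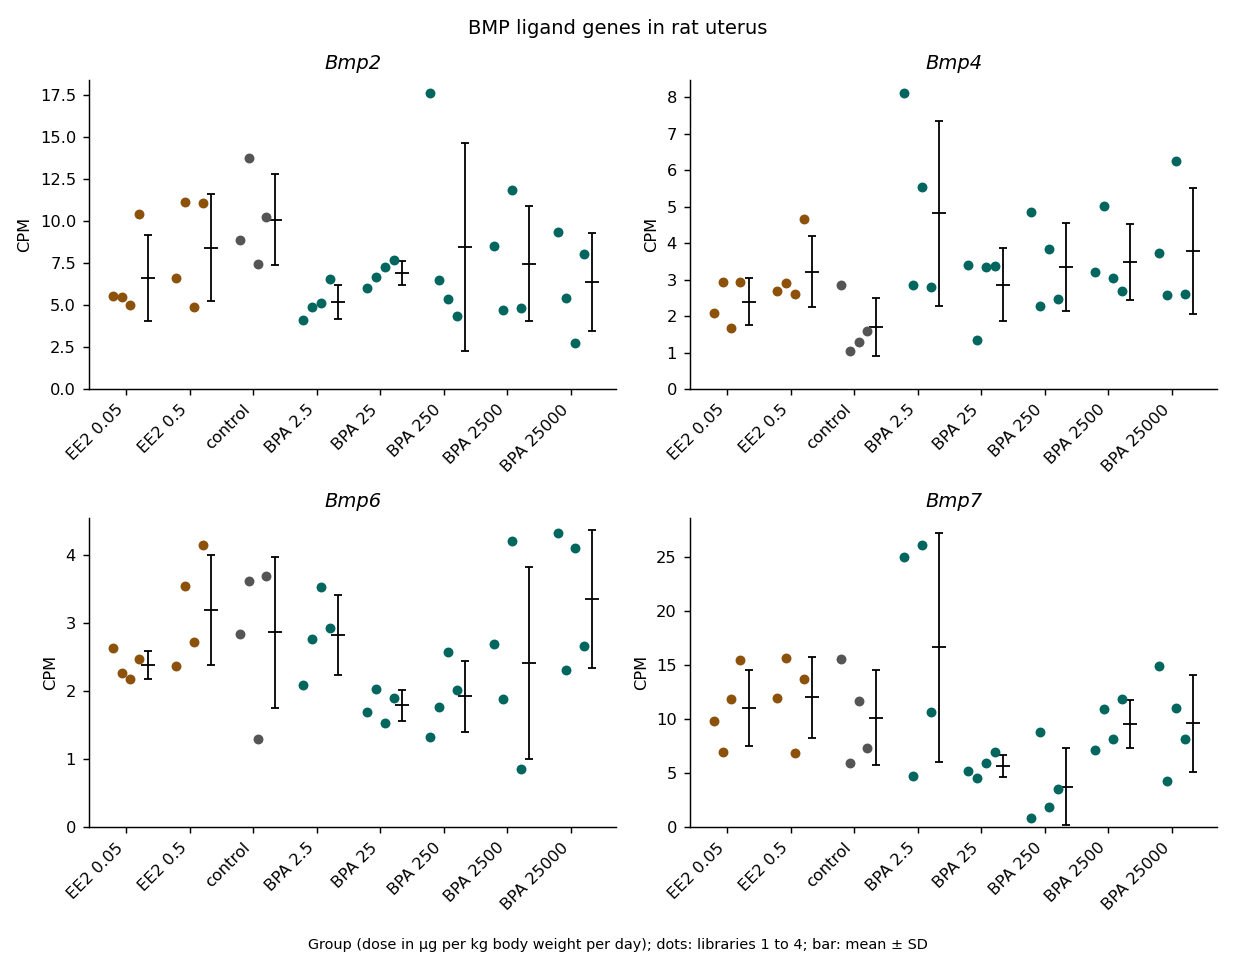
CPM of Bmp2, Bmp4, Bmp6 and Bmp7 in each library (dots, 4 per group) with the group mean ± SD (bars). Bmp4 reaches 8.11 CPM and Bmp7 26.2 CPM in BPA 2.5 libraries, against control maxima of 2.85 and 15.6 CPM.

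BPA and EE2 doses are not matched, so their fold changes can only be set side by side. The BPA mean minus the EE2 mean was 0.41 for Chrd on the log2 scale (SE 0.17, unadjusted p = 0.0260, edgeR adjusted p = 0.270), as Chrd was lower under EE2 than under BPA on average. For Chrdl2 it was -0.54 (interval from -1.21 to 0.14), for Bmp4 0.37 (-0.12 to 0.87) and for Fst 0.21 (-0.41 to 0.83). None of the 9 genes was called by edgeR or DESeq2 in this comparison, where 0.841% of all genes were called, and 1, Chrd, had an unadjusted p under 0.05 (14.3% of all genes). Over all 8 groups an F test called 3 of the 9, Chrd (adjusted p = 0.0125), Chrdl2 (0.0222) and Bmp7 (0.0475), beside 31.7% of all genes. Without control library 2 the first 2 were not called (0.0765 and 0.0679), and Bmp7 was lost in 25 of 32 fits without 1 library and, without the 4 libraries that stood apart, had an adjusted p of 0.175.

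**Figure D5:**
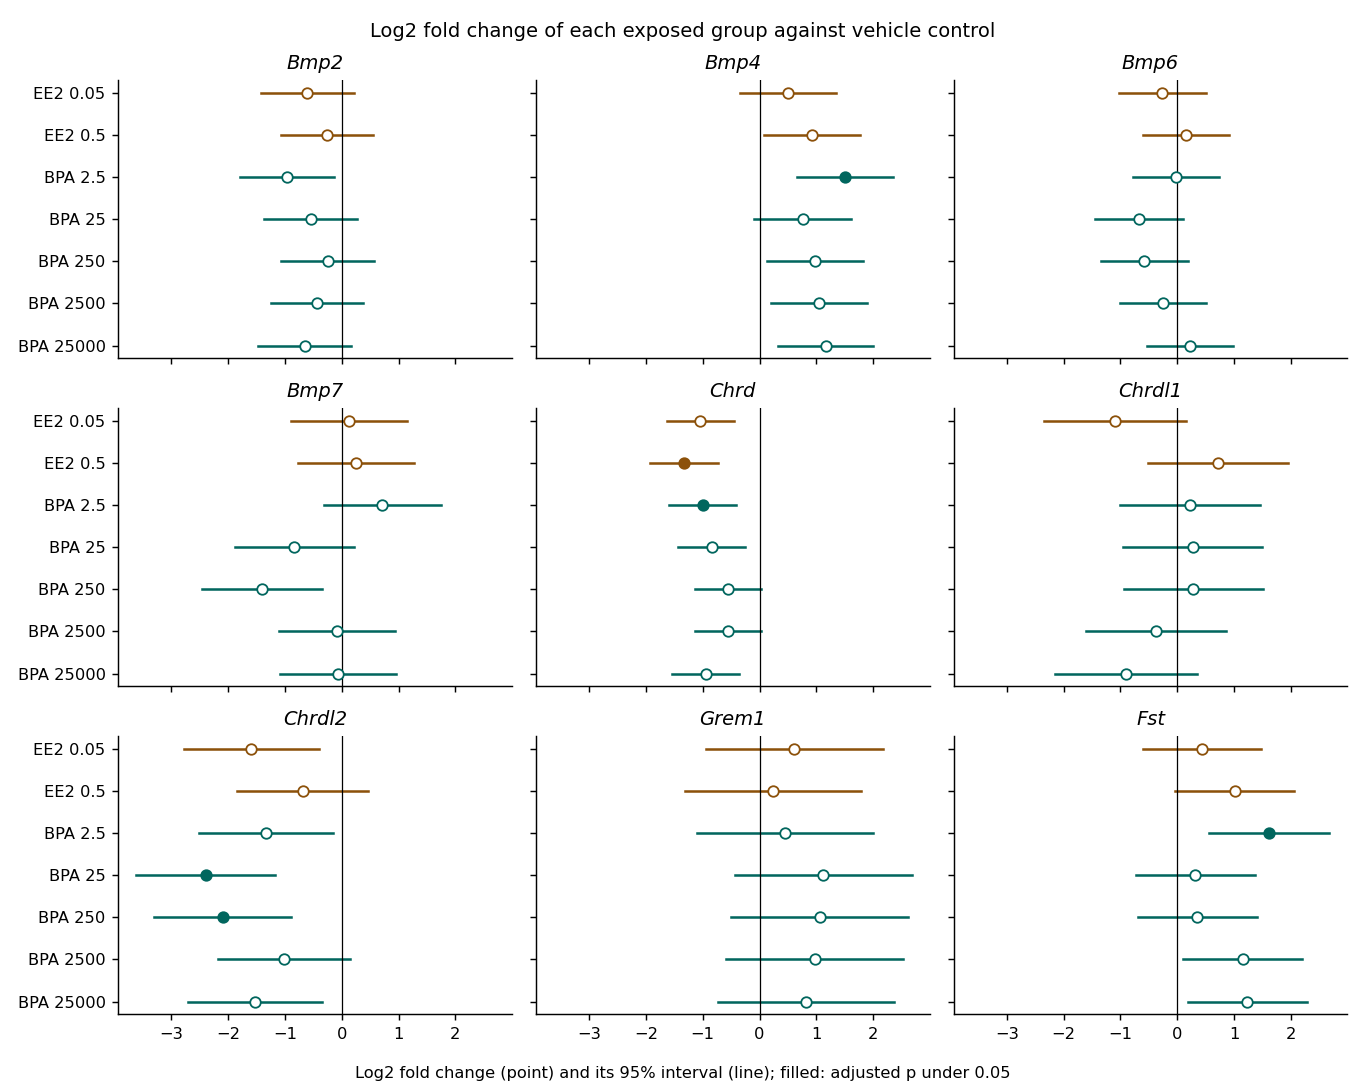
Log2 fold changes of the 9 genes against control in the 7 exposed groups, with 95% intervals from the fit over all groups (n = 4 libraries per group). Chrd lies between -1.33 and -0.55 and Chrdl2 between -2.40 and -0.69 in all 7 groups, Bmp4 between 0.51 and 1.51, and all 7 share the same controls.

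The other genes of the pathway, in lists by role, were called in neither EE2 comparison with control. Of 10 other ligands tested, 1 was called higher, at BPA 250, where 8.79% of all genes were called: Bmp3, which opposes osteogenic BMPs. It averaged 9.46 ± 5.74 CPM there against 1.77 ± 0.75 CPM in controls (SD, n = 4 each), a log2 fold change of 2.41 (edgeR adjusted p = 0.0359), and without the 4 libraries that stood apart the value was 2.25 (0.0508). Of 10 receptors and co-receptors, 1 was called higher, at BPA 2.5 (11.4% of all genes called): Bmpr1b, a type I receptor, with 28.96, 2.85, 23.9 and 3.25 CPM against 1.98, 5.77, 1.96 and 3.62 CPM in controls. The high values of Bmpr1b are those of libraries 1 and 3, which stood apart. Its log2 fold change was 2.14 (edgeR adjusted p = 0.0300), and without the 4 libraries it was -0.12 (0.948). Of 13 other modulators, 1 was called higher, at BPA 25000 (2.32% of all genes called): Crim1, a membrane protein with chordin-like repeats, at 0.47 (edgeR adjusted p = 0.0496).

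Of 8 SMAD genes, 2 were called higher at BPA 25, 1 higher and 1 lower at BPA 250, and 1 higher at BPA 25000, where 1.92%, 8.79% and 2.32% of all genes were called. Smad1, a transducer of BMP receptors, was called in all 3 of these groups. It had 92.4 to 124 CPM at BPA 25, 94.1 to 142 CPM at BPA 250 and 94.9 to 110 CPM at BPA 25000, against 60.7 to 82.8 CPM in controls. None of these ranges overlaps the controls, as in 10.2%, 9.5% and 6.16% of genes, nor did that of EE2 0.05 (97.5 to 114 CPM, not called), as in 5.71%. In the 3 BPA groups the log2 fold changes of Smad1 were 0.60, 0.73 and 0.57 (edgeR adjusted p = 0.0337, 0.00527 and 0.0280). The BPA 250 value was called in all 32 fits without 1 library, and each of the other 2 was lost in 5. Smad5, a close relative, was higher at BPA 25 by 0.61 (edgeR adjusted p = 0.04998), a call lost in 19 of 32 fits, and Smad6, an inhibitor of the pathway, was lower at BPA 250, with a log2 fold change of -1.22 (0.0326). The Smad6 value was -0.95 without the 4 libraries (edgeR adjusted p = 0.0763).

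Of 11 target genes, Id3 and Atoh8 were called higher at BPA 2.5, Id2 at BPA 25 and Id3 at BPA 25000, where 11.4%, 1.92% and 2.32% of all genes were called. Id3, an inhibitor of basic helix-loop-helix factors, had 99.2, 122, 166 and 105 CPM at BPA 2.5 and 112, 138, 143 and 130 CPM at BPA 25000, against 43.4, 65.5, 53.1 and 42.1 CPM in controls. Both groups lay above all controls, as in 6.45% and 6.16% of genes, at log2 fold changes of 1.27 and 1.36 (edgeR adjusted p = 0.0185 and 0.0388). The EE2 0.5 libraries, at 90.6 to 148 CPM, also lay above all controls, as in 6.80% of genes, and Id3 was not called there (edgeR adjusted p = 0.0938). So did the BPA 25 libraries, at 66 to 176 CPM, as in 10.2% of genes, and Id3 was not called at that dose. Without the 4 libraries Id3 was not called at BPA 2.5 (1.17, edgeR adjusted p = 0.127) and was at BPA 25000 (1.33, 0.0430). Id2 was higher at BPA 25 by 1.36 (edgeR adjusted p = 0.0393), a call lost in 7 of 32 fits. Atoh8 was higher at BPA 2.5 by 1.28 (0.0378), a call lost without the 4 libraries (0.90, 0.332). Over the 5 BPA doses Smad1 (0.47, edgeR adjusted p = 0.0382) and Id3 (1.12, 0.0495) were called, and these calls were lost in 7 and 23 of 32 fits without 1 library. Among the other calls, leaving out 1 library ended that of Crim1 in 22 of 32 fits, Bmp3, Atoh8 and Id3 at BPA 25000 in 6 each, Bmpr1b and Smad6 in 5 each, and Id3 at BPA 2.5 in 3.

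The F test over the 5 BPA groups, in which 34.3% of all genes were called, picked 1 of 10 other ligands, 3 of 10 receptors and co-receptors, 1 of 13 modulators, 4 of 8 SMAD genes and 4 of 11 targets. Beside genes already named, these were Inha, the alpha subunit of inhibin (edgeR adjusted p = 0.00982), the co-receptors Rgma (0.0374) and Hjv (0.0135), Smad4 (0.0126) and the transcription factor Runx2 (0.0237). This test has no direction.

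The genes with the highest levels in each role are given as values, each over all 32 libraries. Inhbb, the beta B subunit of activin and inhibin, ran from 33.7 to 421 CPM, and Gdf7 from 3.28 to 32.9 CPM. The receptor Bmpr1a ran from 89.8 to 273 CPM and the co-receptor Eng from 75.8 to 182 CPM. Among modulators, Fstl1 ran from 129 to 387 CPM and Nbl1 from 125 to 273 CPM. Smad4, the shared partner of the receptor SMADs, ran from 147 to 344 CPM and the ubiquitin ligase Smurf2 from 115 to 170 CPM, and the target Id4 from 60.1 to 315 CPM.

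For each member, up to 2 tested genes with the most similar rank pattern over the 32 libraries were found by Spearman's rho, as a description that also reflects shared library differences. Chrd was most like Abcc3 (0.824) and Itgae (0.817), and Chrdl2 most like Adgrb1 (0.878) and Agap2 (0.856). Fst was most like Tacc2 (0.851) and Tmem179 (0.835), Chrdl1 like Hoxc4 (0.804) and Arpp21 (0.795), and Grem1 like Ka11 (0.719) and Zdhhc14 (0.714). Among the ligands, Bmp4 was most like Limch1 (0.720) and Pla2g3 (0.711), Bmp7 like Thop1 (0.773) and Ruvbl1 (0.771), Bmp2 like Fez2 (0.744) and Sf3b3 (0.729), and Bmp6 like Arhgef40 (0.750). With group means removed, the rho of Chrdl2 with Adgrb1 was 0.824 and that of Chrd with Abcc3 0.676. Over the pairs named here such values ran from 0.475 (Bmp6 with Arhgef40) to 0.832 (Chrdl1 with Hoxc4). Those of Bmp7 with Thop1 and Ruvbl1 were 0.507 and 0.529.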

How the data were processed

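Per the labels' protocols, total RNA of rat uterus was isolated with a Qiagen RNeasy Lipid kit and made into Illumina libraries. The deposited table holds raw counts of reads per gene in whole numbers. The submitters' processing notes name bcl2fastq, TopHat, edgeR and build rn5. No version, annotation, counting tool or strand setting is given in the sources used here. Of 17327 genes, 17167 matched symbols in a RefSeq table (GRCr8, used for names, overlaps and promoters), and 160 did not; 1766 had 0 counts everywhere. Promoter entries were found for 5 of the 9 members.

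Groups came from the labels, and libraries were numbered 1 to 4 within a group in accession order. The filterByExpr function of edgeR 4.0.16 (R 4.3.3; minimum count 10, minimum total 15) kept 13312 genes, and TMM factors scaled the libraries. A quasi-likelihood model with 1 mean per group over all 32 libraries gave 14 comparisons: 7 groups with control, the EE2 and BPA means with control, F tests of the BPA groups and of all exposed groups against control, the trend over log10 BPA dose, EE2 0.5 with EE2 0.05, and the BPA with the EE2 mean. The p-values were adjusted by Benjamini-Hochberg over all genes (threshold 0.05). Standard errors are the fold change over the square root of F, and floors cover counting error only. DESeq2 1.42.0 and other settings were alternatives. The steps were tested on simulated counts.

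The members and lists were chosen with earlier results of these data known. All 9 members are named, with pathway genes called in any comparison with control, the 2 of each role with the highest mean level and, for each member, the 2 genes of highest rho, of which 1 gene is not reported here. The pathway lists hold 14 other ligands (10 tested), 11 receptors (10), 17 modulators (13), 8 SMADs and 11 targets.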

Additional observations from a re-analysis of the deposited data

Results flagged for a closer look

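In 8 of 72 groups of 4 libraries, 1 library of a member lay far from the other 3, with a gap to the nearest of them over 0.829 of the group's range. Chance flags about 1 in 20 groups. Bmp2 was high in EE2 0.05 library 4 (10.46 CPM) and in BPA 250 library 1 (17.65 CPM), which is among the libraries that stood apart. Bmp4 was high in EE2 0.5 library 4 (4.655 CPM) and low in BPA 25 library 2 (1.361 CPM). Chrd was high in control library 2 (144.3 CPM), and Chrdl2 in BPA 2.5 library 4 (38.43 CPM). Grem1 was high in BPA 2500 library 4 (52.56 CPM) and in control library 4 (35.1 CPM).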

How the results depend on the processing

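Of 28 member calls and single-contrast pathway calls, all 28 were kept with DESeq2's size factors and with DESeq2, 25 with a robust spread, 27 when genes needed 1 CPM in 16 libraries, 23 when no filter was applied, and 12 of 25 with only the groups compared in the fit. Without the 4 libraries 18 were kept, 9 were lost and Bmpr1b at BPA 2.5 turned to -0.12. The number of members called moved as follows, and the cause was not tested. With only the groups compared it was 2 at EE2 0.05 and over both EE2 groups, 0 at BPA 2.5 and over the BPA mean, and 1 for any BPA dose. Such fits called 130, 612, 57 and 12 of all genes at EE2 0.05, both EE2 groups, BPA 2.5 and the BPA mean, against 6, 9, 1524 and 178. Without the 4 libraries the member count was 0 at BPA 2.5 and 2 at BPA 25, BPA 25000 and the BPA mean. Of all genes, 526, 1374, 751 and 629 were called there. At a threshold of 0.1 the member count was 2 at BPA 25 and 250, 1 at BPA 25000, 3 for the BPA mean and 5 for any BPA dose. DESeq2 gave 2 at BPA 250, 1 at BPA 25000, 3 for the BPA mean and 5 for any BPA dose. Among all genes it called 1842, 770, 776 and 5714 there, against 1170, 309, 178 and 4572 by edgeR. For both EE2 groups the count was 0 without a filter and 0 with the 1 CPM filter. Leaving out 1 library gave 0 to 1 at EE2 0.5, BPA 25, BPA 25000 and the EE2 mean, 0 to 4 at BPA 2.5, 0 to 2 at BPA 250 and the BPA mean, 1 to 5 for any BPA dose and 0 to 3 over all 8 groups. Without control library 2, 3 or 4, 6, 7 and 8 of the 28 calls were kept. No paired analysis was possible because the labels number no replicates across groups. Depth limits Bmp4 and Bmp6 most, with 1689 and 1350 reads over all libraries and as few as 14 and 18 in a library. Bmp7 had 15 reads in BPA 250 library 1, which stood apart, and 5168 over all libraries.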
